A study of Mus musculus with 2 samples.

Results

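Aminoacyl-tRNA synthetases are the enzymes that join each amino acid to its tRNA, and 36 of their genes were followed here in 2 libraries of 3T3-L1, an established mouse preadipocyte line that matures into fat cells under hormonal induction. The 36 genes were taken by symbol and not by a cut on measured values, out of 23282 rows in each deposited table. Earlier results of these data were known at that choice. The genes comprise 20 for the cytosolic enzymes and 16 for the mitochondrial ones, whose symbols end in 2. Each of the 36 symbols was found on a single row, and all 36 had a summed count of at least 40 over the libraries, the level at which a gene is called measured below. The control library came from cells given a control siRNA and the other from cells given an siRNA against Pink1, whose product is a kinase that flags failing mitochondria for mitophagy. There was 1 library per group, so differences cannot be checked against replicates and none was given a p-value. The labels describe the cells as murine adipocytes. How long the cells were differentiated, when RNA was taken after transfection and how many cultures stand behind each library is not given in the sources used here.

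A synthetase activates its amino acid with ATP and then transfers it to the matching tRNA, which carries it to the ribosome. The enzymes fall into class I and class II, which have unrelated catalytic folds. Mitochondria make a small set of respiratory chain proteins on their own ribosomes, and most of the enzymes that charge their tRNAs are encoded by separate nuclear genes. Gars and Kars are exceptions, since each gene supplies the glycyl or lysyl enzyme of both compartments, and Eprs encodes a single protein that charges both glutamate and proline in the cytosol. Part of the cytosolic set is held together in the multisynthetase complex, and many cytosolic synthetase genes are known targets of ATF4, the transcription factor of the amino acid response.

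The libraries held 13803174 counts (control siRNA) and 14214768 counts (Pink1 siRNA). Pink1 itself had 511 control counts and 351 Pink1 siRNA counts (36.5 and 25.1 CPM, counts relative to the scaled library size). Its ratio was 0.687 (counting interval 0.598 to 0.788, widened interval 0.445 to 1.05, both defined below). Pink1 was thus lower in the Pink1 siRNA library by more than counting error, while the widened interval included 1. The knockdown of Pink1 was not tested. Of 10 adipocyte markers 9 were measured, with 5 ratios above 1 and 4 below, and no read of Lep was counted. By the size rule defined below, the fatty acid carrier Cd36 was higher in the Pink1 siRNA library (461 and 621 counts) and the lipid droplet gene Plin1 (275 and 167) and the glucose transporter Slc2a4 (49 and 25) were lower, while Adipoq stood at 309.6 and 308 CPM. Dlk1, a preadipocyte gene, was abundant as well, at 8326 and 9329 CPM. Of 7 preadipocyte and fibroblast markers 6 were measured, all with ratios above 1 (5 of 6 with total-count or upper-quartile scaling). Thy1 was higher by the size rule (1289 and 1892 counts). The widened interval lay above 1 for Dlk1 (1.02 to 1.23), Col1a1 (1.01 to 1.31) and Thy1 (1.05 to 2.06), and below 1 for 0 of the 6. It lay above 1 for 2.09% of all measured genes, and off 1 for 0 of the 9 measured adipocyte markers. Dlk1 and Col1a1 (log2 ratios 0.16 and 0.20) belong to the most abundant twentieth of measured genes, whose median log2 ratio was 0.09.

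Some markers of other cell types were at 0 counts in both libraries for macrophages (Adgre1), endothelium (Cdh5, Kdr, Tek), muscle (Myod1, Myog) and osteoblasts (Sp7, Bglap). The blood cell marker Ptprc had 5 and 0 counts, and 5 macrophage and blood cell markers together summed to 19.5 and 15.2 CPM, most of it from Cd14 (223 and 179 counts), with 25 and 11 counts of Csf1r and 20 and 23 of Cd68. Other markers on these lists were counted too. Pecam1 (endothelium) had 8 and 7 counts, Des and Acta1 (muscle) had 74 and 99 and 15 and 7, and Alpl and Ibsp (osteoblast) had 6 and 11 and 5 and 0. The part of these cell markers in the results on synthetases was not tested.

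Synthetase transcripts differed little between the libraries. The median log2 ratio (Pink1 siRNA over control siRNA) was -0.05 for the 20 cytosolic genes and -0.01 for the 16 mitochondrial genes, against 0.0047 for all 11660 measured genes. Under the size rule used below, a gene was higher or lower if its log2 ratio was 0.32 or more in size (5 to 4 as a ratio) with a 95% counting interval that excluded a ratio of 1. By this rule 3 cytosolic genes (Nars, Hars, Rars) were lower and 0 were higher, and 2 mitochondrial genes (Pars2, Ears2) were lower and 3 (Nars2, Sars2, Yars2) were higher. Of all measured genes, 14.3% were lower and 13.7% were higher by the same rule, so the counts for the synthetases, 5 lower and 3 higher of 36, were near the background. At a ratio of at least 1.5, 2 members were higher (Nars2, Sars2) and 1 was lower (Pars2), with 5.43% and 6.64% of all measured genes. At a ratio of at least 2, 1 member was higher (Nars2) and 0 were lower, with 1.63% and 2.39% of all measured genes.

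The counting interval covers only the sampling of reads. Differences between these libraries exceeded it at every level of expression, so a second interval was widened by the mean excess spread of all genes in the same twentieth of level. That interval included a ratio of 1 for all 36 synthetase genes. It lay above 1 for 2.09% and below 1 for 2.01% of all measured genes. For a set of 36, having no member off 1 is near those background shares. By a narrower measure, 11 of the 36 log2 ratios lay below and 7 above the interquartile range of all genes in their own twentieth of level. By definition, as many genes of a twentieth lie outside that range as inside it, evenly split below and above. In bulk RNA, fewer cells of a type and less RNA per cell cannot be told apart.

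**Figure D1:**
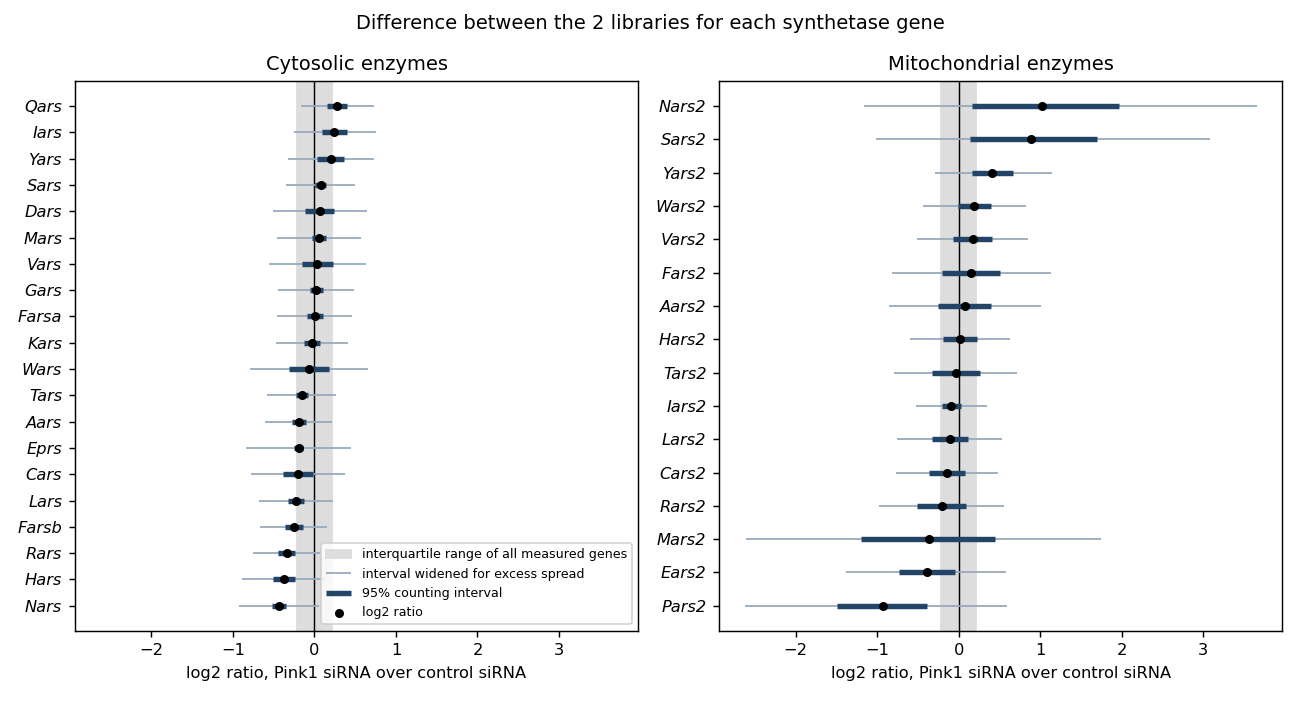
Log2 ratio of Pink1 siRNA over control siRNA (x axis) for each cytosolic (left) and mitochondrial (right) synthetase gene, 1 library per group. Points are the ratios, thick lines the 95% counting intervals, thin lines the widened intervals, and the grey band the interquartile range of all 11660 measured genes. Every thin line crosses 0, and the widest lines belong to Nars2, Sars2, Mars2 and Pars2, the members with the fewest reads.

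The cytosolic enzymes were the more abundant class. Their mean level over the libraries ran from 19.4 CPM for Wars, the tryptophanyl enzyme, to 395 CPM for Eprs, with a median of 113 CPM. The mitochondrial enzymes ran from 1.86 CPM for Nars2 to 92.7 CPM for Iars2, with a median of 13.6 CPM. Because the kit takes tags from the 3′ end of a transcript, a count is not expected to scale with transcript length, and these levels were not divided by length. Mitochondrial genes made up 10.8% of the counts of the 36 genes in the control library (95% Wilson interval 10.5% to 11.1%). In the Pink1 siRNA library they made up 11.5% (11.1% to 11.8%). Both intervals cover only the sampling of reads, and the difference in share was not tested. All 36 genes together took 0.290% of the control library and 0.264% of the other.

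**Figure D2:**
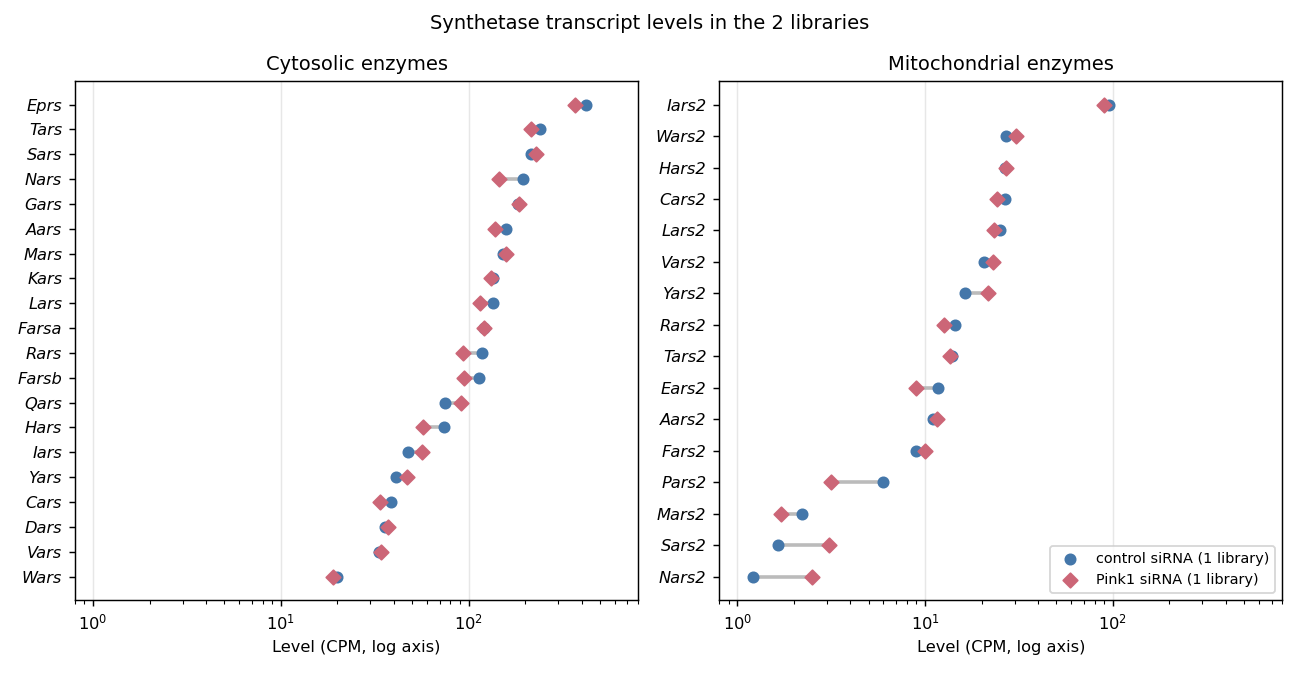
Level of each synthetase gene in CPM (log x axis), with cytosolic enzymes on the left and mitochondrial enzymes on the right, ordered by control level. Circles are the control siRNA library and diamonds the Pink1 siRNA library. The markers of most genes nearly coincide, and the widest gaps are at the bottom of the mitochondrial panel.

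Among the cytosolic enzymes the lowest ratio was in Nars, which charges asparagine and lies on chromosome 18 from 64499655 to 64516515 (mm10). Nars had 2745 control counts and 2029 Pink1 siRNA counts, or 196 and 145 CPM. Its ratio was 0.739 (counting interval 0.698 to 0.783, widened interval 0.524 to 1.04). The Pink1 siRNA library was thus the lower one by more than counting error, while the widened interval included 1. Its log2 ratio of -0.44 lay below the interquartile range of all genes in the same twentieth of level, which was -0.10 to 0.17.

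Hars, the histidyl enzyme (chromosome 18 from 36766528 to 36783205), had 1033 and 797 counts, a ratio of 0.772 (0.703 to 0.847, widened 0.541 to 1.09). Rars, the arginyl enzyme (chromosome 11 from 35808381 to 35834528), had 1653 and 1307 counts, a ratio of 0.791 (0.735 to 0.851, widened 0.594 to 1.05). Both were lower in the Pink1 siRNA library by the size rule, with the limit that exons of Hars overlap Hars2, and the next lowest ratios, short of it, were in Farsb (0.840) and Lars (0.855). Farsb and Farsa encode the subunits of the cytosolic phenylalanyl enzyme. Farsa had 1692 and 1697 counts and Farsb 1582 and 1328, so the level of Farsa over that of Farsb was 1.07 in the control library and 1.28 in the Pink1 siRNA library.

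On the other side, Qars, which charges glutamine, had the highest ratio of the cytosolic set. It had 1050 and 1273 counts, a ratio of 1.21 (1.12 to 1.32, widened 0.891 to 1.65). Iars, the isoleucyl enzyme, had 665 and 788 counts (ratio 1.18), and Yars, the tyrosyl enzyme, 575 and 660 (ratio 1.15). None of these passed the size rule, although their counting intervals lay above 1.

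Eprs, the most abundant member, had 5910 and 5166 counts, a ratio of 0.874 (0.842 to 0.908, widened 0.558 to 1.36). Similar ratios were seen in the alanyl gene Aars (2224 and 1946 counts, 0.875), the cysteinyl gene Cars (543 and 473, 0.871) and the threonyl gene Tars (3345 and 3001, 0.897). The seryl gene Sars had 3024 and 3186 counts (ratio 1.05). Close to 1 were Dars (aspartate, 1.05), Mars (methionine, 1.04), Vars (valine, 1.03) and Wars (tryptophan, 0.953), together with the dual-compartment genes Gars (1.01) and Kars (0.979).

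Summed over the 20 genes, cytosolic synthetase transcripts stood at 2552 CPM in the control library and 2370 CPM in the Pink1 siRNA library. The ratio of the sums was 0.928 (counting interval 0.915 to 0.942), equal to -0.11 on the log2 scale. Of the difference of 182 CPM, Eprs and Nars together made up 104 CPM, or 57.1%. Without them the ratio of the sums was 0.960. Of the single genes, 11 had a ratio below 1 and 9 above it (14 and 6 with total-count scaling), against 48.9% and 51.1% of all measured genes. The counting interval lay below 1 for 9 of the 20 and above 1 for 4, against 24.9% and 26.2% of all measured genes. Among the 6625 measured genes with levels inside the cytosolic range, the counting interval lay below 1 for 26.2% and above 1 for 29.8%. Of the same genes, 697 were higher and 623 were lower by the size rule, and their median log2 ratio was 0.01.

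Cytosolic genes inside and outside the multisynthetase complex overlapped in their ratios. The 8 catalytic members of the complex (Dars, Eprs, Iars, Kars, Lars, Mars, Qars, Rars) had 4 ratios above 1 and 4 below. Their median log2 ratio was 0.01, which became -0.03 with total-count scaling. The 12 cytosolic genes outside the complex had 5 above 1 and 7 below (2 and 10 with total-count scaling), with a median of -0.11. The complex holds both the highest cytosolic ratio, in Qars, and the third lowest, in Rars. Its scaffold genes, which encode proteins with no charging activity, had ratios of 1.21 for Aimp1 (2191 and 2647 counts), 1.13 for Aimp2 (651 and 735) and 1.01 for Eef1e1 (176 and 177). None of the 3 passed the size rule.

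By catalytic class, the 9 cytosolic class I genes had a median log2 ratio of 0.04, which turned to -0.01 with total-count scaling, and the 10 class II genes of -0.09. In the mitochondrial set the order was the other way, with -0.11 for the 9 class I genes and 0.07 for the 7 class II genes. Eprs, which joins a class I and a class II enzyme in a single chain, was left out of these medians. The difference between classes was not tested.

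The mitochondrial enzymes spread more widely than the cytosolic ones, from a log2 ratio of -0.93 to 1.02 against -0.44 to 0.28. They also had fewer reads, and the 3 members furthest from 1 (Nars2, Pars2, Sars2) were among the 4 scarcest. Over the 12 mitochondrial genes with a summed count of at least 200, the range was -0.39 to 0.41. Nars2, the mitochondrial asparaginyl enzyme (chromosome 7 from 96950839 to 97064758), had 17 and 35 counts, a ratio of 2.03 (1.12 to 3.92, widened 0.446 to 12.6). Sars2, the seryl enzyme (chromosome 7 from 28741957 to 28753879), had 23 and 43 counts, a ratio of 1.85 (1.10 to 3.25, widened 0.494 to 8.46). In both the Pink1 siRNA library was the higher one, from fewer than 50 reads in either library. The ratio of Nars2 was under 2 with total-count scaling and with 5 added before the log.

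Pars2, the prolyl enzyme (chromosome 4 from 106651069 to 106655282), stood on the other side with 84 and 44 counts, a ratio of 0.527 (0.355 to 0.763, widened 0.162 to 1.51). Mars2, the methionyl enzyme, had 31 and 24 counts, and its counting interval of 0.435 to 1.36 included 1. In the twentieth of level that holds Nars2, Sars2 and Mars2, the interquartile range of the log2 ratio over all genes was -0.79 to 0.45. Nars2 and Sars2 lay outside that range and Mars2 inside it.

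With more reads, Yars2, the tyrosyl enzyme, had 228 and 304 counts, a ratio of 1.33 (1.12 to 1.59, widened 0.814 to 2.20). Ears2 had 165 and 126 counts, a ratio of 0.764 (0.601 to 0.969, widened 0.382 to 1.5), and its exons overlap those of Ubfd1 (381 and 349 counts) by 89 bases. Ears2 charges glutamate, and in mitochondria it also loads the glutamine tRNA, whose amino acid is then converted in place by an amidotransferase. The subunit genes of that amidotransferase had ratios of 1.28 for Qrsl1 (88 and 113 counts), 1.38 for Gatb (136 and 188) and 1.07 for Gatc (361 and 387). Ears2 was thus the lower in the Pink1 siRNA library while the ratios of its partners were above 1, and of the partners Gatb alone passed the size rule.

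The remaining 10 mitochondrial genes had counting intervals that included 1. The most abundant, Iars2 (isoleucine), had 1339 and 1259 counts (ratio 0.940), with the limit that its exons overlap Rab3gap2. Ratios above 1 were in Wars2 (tryptophan, 1.14), Vars2 (valine, 1.12), Fars2 (phenylalanine, 1.11), Aars2 (alanine, 1.05) and Hars2 (histidine, 1.01, but below 1 with total-count scaling). Below 1 were Tars2 (threonine, 0.975), Lars2 (leucine, 0.926), Cars2 (cysteine, 0.906) and Rars2 (arginine, 0.867).

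As a sum, the 16 mitochondrial genes stood at 309 and 307 CPM, a ratio of 0.993 (0.952 to 1.04), and 8 genes lay on each side of 1.

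Cytosolic and mitochondrial genes that serve the same amino acid could be set side by side in 17 pairs, in which Eprs and Fars2 each appear in 2. Over all 17 pairs, the median of cytosolic over mitochondrial level was 12.6 in the control library and 9.49 in the Pink1 siRNA library. The cytosolic gene was the more abundant in both libraries in 15 of the pairs. The exceptions were isoleucine and tryptophan. Iars stood at 47.5 and 56.3 CPM below Iars2 at 95.6 and 89.9, and Wars at 19.8 and 18.9 CPM below Wars2 at 26.8 and 30.6. Exons of Iars2 overlap those of Rab3gap2 (1050 and 1082 counts) on the opposite strand, and strand use in counting is unknown. The widest gap in the control library was between Nars and Nars2, a ratio of 161 that was 58.0 in the Pink1 siRNA library.

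Between libraries, the cytosolic partner had the lower log2 ratio in 13 of the 17 pairs and the higher in 4, with a median difference of -0.13. The pairs with the cytosolic gene higher were Eprs with Pars2, Mars with Mars2, Iars with Iars2 and Eprs with Ears2. For asparagine, Nars had a log2 ratio of -0.44 and Nars2 of 1.02, and for histidine Hars had -0.37 and Hars2 0.02 (-0.03 with total-count scaling). The medians of the whole sets differed by -0.04 (cytosolic minus mitochondrial). That is smaller than the spread within either set, and with 1 library per group it was not tested.

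**Figure D3:**
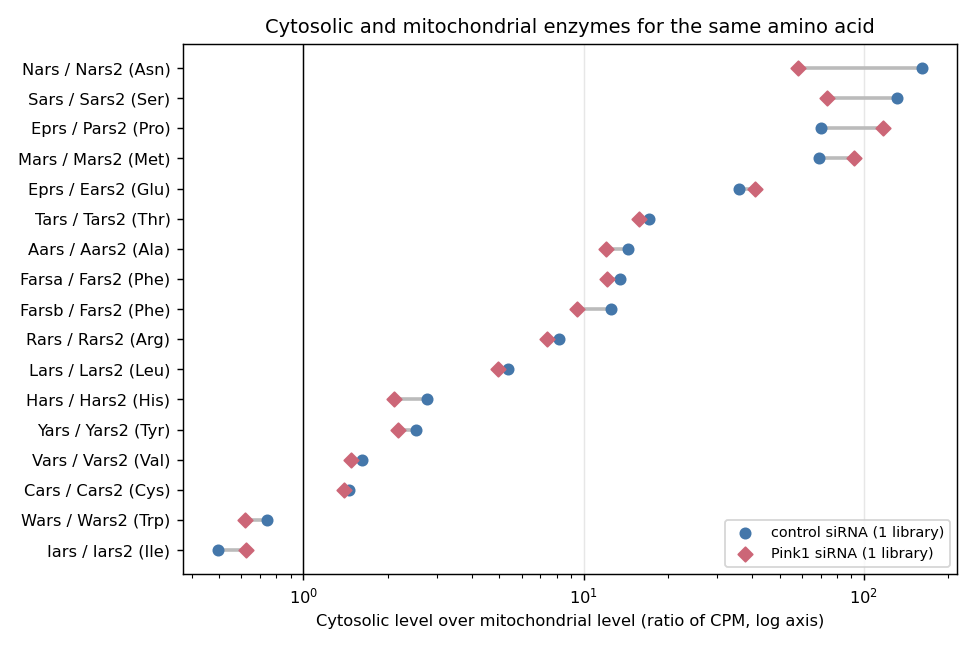
Level of the cytosolic gene divided by the level of the mitochondrial gene for the same amino acid (log x axis) in the control siRNA library (circles) and the Pink1 siRNA library (diamonds), for 17 pairs. Pairs for isoleucine and tryptophan lie left of the line at 1 in both libraries, and the diamond lies left of the circle in 13 pairs.

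Promoter sequence was examined for the amino acid response element, the site through which ATF4 acts. The motif searched was TGATGNAA on either strand (TTNCATCA on the printed strand when reversed), in the RefSeq promoter windows of GRCm38.p6, which is mm10, from 250 bases before to 50 bases after each annotated start. A promoter window was found for 13 cytosolic and 14 mitochondrial genes. None was found for Cars, Hars, Lars, Nars, Rars, Vars, Wars, Hars2 and Pars2. Of these, Nars, Hars and Rars are the cytosolic genes that were lower by the size rule. The mitochondrial genes had 15 windows, since Aars2 has more than one. The motif was present for 5 of the 13 cytosolic genes and 0 of the 14 mitochondrial ones, against 4.51% of all 27025 genes with a window and 3.97% of all 32851 windows. Matches are shown, 1 per gene, because they were found for cytosolic genes and for none of the mitochondrial ones. Each line gives 30 bases, 5′ to 3′ in the direction of transcription, with the motif in capitals, and Asns, a textbook carrier of the element, is added for comparison:
Aars: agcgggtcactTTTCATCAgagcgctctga
Gars: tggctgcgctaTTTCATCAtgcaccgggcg
Iars: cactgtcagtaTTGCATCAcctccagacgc
Tars: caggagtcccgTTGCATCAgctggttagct
Yars: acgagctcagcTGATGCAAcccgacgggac
Asns: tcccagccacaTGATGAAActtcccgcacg

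These windows lie at chr8:111033840-111033869 (Aars, plus strand), chr6:55037960-55037989 (Gars, plus), chr13:49682126-49682155 (Iars, plus), chr15:11399655-11399684 (Tars, minus), chr4:129189895-129189924 (Yars, plus) and chr6:7693214-7693243 (Asns, minus). The first base of the motif is at position 10 in Aars, -30 in Gars, 8 in Iars, -15 in Tars, 4 in Yars and -23 in Asns, counted from the transcript start of the promoter window as base 1. That start lies 6064 bases inside the annotated gene span for Aars and 169 for Yars. The 5 synthetase genes with a match did not share a direction. Iars and Yars had log2 ratios of 0.24 and 0.20, Gars of 0.02, Tars of -0.16 and Aars of -0.19. Asns, which encodes asparagine synthetase, had 1322 and 1132 counts, a log2 ratio of -0.22. The median of the 5 was 0.02 (-0.02 with total-count scaling) and that of the 8 cytosolic genes with a window and no match was 0.03. Both medians leave out the cytosolic genes without a window, among them Nars, Hars and Rars. A match is a description of the letters and not a shown binding site.

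The regulators and other targets of the amino acid response had no common direction either. Eif2ak4, the kinase GCN2 that senses uncharged tRNA, had 477 and 444 counts (log2 ratio -0.10). Atf4 had 7792 and 9174 (0.24), and the stress factor Ddit3 2219 and 2221 (0.00). Of 30 listed genes 28 were measured, with a median of 0.00, 15 above 1 and 13 below (12 and 16 with total-count or upper-quartile scaling), and by the size rule 4 were higher and 4 lower. The furthest from 1 were the cystine transporter Slc7a11 (61 and 14 counts, log2 -2.08), the stress hormone Gdf15 (25 and 52, 1.04), the leucine sensor Sesn2 (55 and 27, -1.01) and the proline synthesis gene Aldh18a1 (190 and 270, 0.51). Of these, Slc7a11 alone had a widened interval off 1 (0.0337 to 0.942).

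Of other charging and editing genes that are not members, 11 were measured with a median log2 ratio of 0.11. By the size rule Gatb was higher, while the alanyl-tRNA editing gene Aarsd1 (614 and 471 counts, log2 -0.38) was lower. Sepsecs, which completes selenocysteine on its tRNA, had 48 and 61 counts (log2 0.34) and did not pass the rule. The factors that hand charged tRNA to the ribosome had 5 of 6 ratios above 1 and a median of 0.17, with none past the rule. The cytosolic exchange factor subunits Eef1d, Eef1b2 and Eef1g had 0.25, 0.23 and 0.17, and the mitochondrial factor Tufm 0.18 (198 and 224 counts). The tRNA maturation genes, 21 measured, had a median of -0.02, with 3 higher and 2 lower by the rule. Trmt10c, a subunit of the mitochondrial RNase P, had 243 and 355 counts (0.55). The 3′ processing enzymes Elac2 and Elac1 had 0.42 and 0.42, and the splicing endonuclease subunit Tsen54 -0.42. Of these, Elac1 (41 and 55 counts) did not pass the rule.

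Wars is known as an interferon-induced gene, and 6 interferon genes were set beside it. All 6 had ratios below 1 (median log2 -0.40), and 4 were lower by the size rule, as were 14.3% of all measured genes. The log2 ratios of the 4 were -1.43 in Ifit3 (233 and 86 counts), -0.90 in Ifit1 (215 and 115), -0.49 in Stat2 (338 and 241) and -0.32 in Irf9 (509 and 407). Of the 6, Ifit3 alone had a widened interval off 1 (0.171 to 0.742). Wars itself had 278 and 265 counts, a log2 ratio of -0.07 (counting interval of the ratio 0.803 to 1.13). Its difference between the libraries was within counting error.

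**Figure D4:**
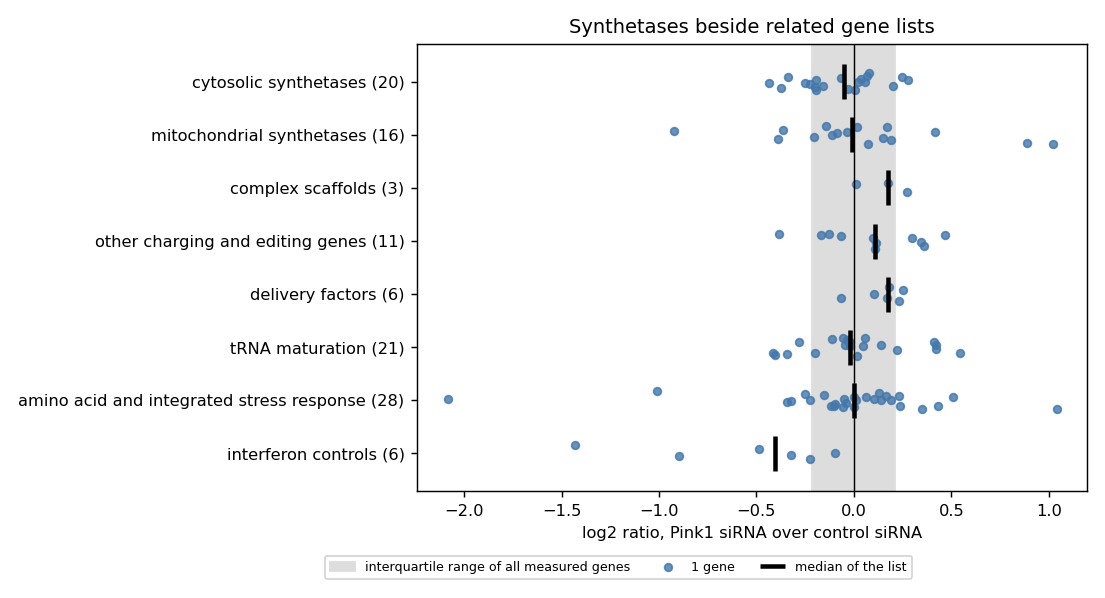
Log2 ratio of Pink1 siRNA over control siRNA (x axis) for each measured gene of the synthetase sets and of 6 related lists, with the number of genes in brackets. Each point is 1 gene, the black bar is the list's median and the grey band is the interquartile range of all measured genes. Both synthetase medians lie inside the band, and the median of the interferon list lies to its left.

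Reads of 9 members may not be separable from a neighbour's, because exons overlap and, where strands differ, strand use in counting is unknown. They are Aars (with Exosc6, over 1326 bases), Iars2 (with Rab3gap2, over 2034 bases), Mars (with Ddit3, over 68 bases), Hars and Hars2 (with each other, over 195 bases), Farsb, Yars, Ears2 and Fars2. Aars and Exosc6 (483 and 567 counts) lie on the same strand, so strand use would not separate their reads. The other overlaps are between opposite strands. Fars2 shares 501 exon bases with Nrn1, which went from 649 to 438 counts, and the ratio of Fars2 itself was 1.11. Near-identical pseudogenes of single members were not searched for.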

How the data were processed

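RNA was extracted with Trizol and made into libraries with a QuantSeq kit, which reads 3′ ends, per the labels' protocols. The authors deposited 1 table of raw counts per library, with a row per gene symbol. The submitters' processing notes name Bowtie2, bedtools, bcl2fastq (2.20.0.422) and the build mm10. Annotation, strand use and the treatment of multiply mapped reads are not given in the sources used here.

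Library sizes were scaled with edgeR's TMM method (edgeR 4.0.16, R 4.3.3). The log2 ratio is that of scaled counts with 0.5 added. Genes with a summed count of at least 40 (11660 rows) were used. Counting intervals are exact conditional binomial 95% intervals (SciPy 1.17.1). Reads carry no stated molecular identifiers, so intervals cover counting error only. Widened intervals divide both counts by the mean of the squared difference over its binomial variance in the same twentieth of level, which ran from 5.66 to 128 for the synthetases. Real differences between the cells enter this factor as well as technical ones. The code was tested on simulated data with counting error only, which cannot test the intervals under the excess spread seen here.

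Members and lists were chosen with earlier results of these data known. All members are accounted for, and of each related list (cell type markers apart) the 4 measured genes with the largest log2 ratios in size, or all where fewer were listed, are named besides the regulators and partners described. Some related items are not reported here. Mars was found as Mars1 in RefSeq GRCm38.p6, which gave coordinates and promoters. Exon overlaps came from GENCODE M21. Alternatives were other scalings (DESeq2 1.42.0 among them), filters, thresholds and intervals.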

Additional observations from a re-analysis of the deposited data

How the results depend on the processing

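The medians of both synthetase sets kept their sign under every alternative run. The cytosolic median ran from -0.09 to -0.05, the mitochondrial from -0.05 to -0.01 and their difference from -0.07 to -0.04. The ratio of the summed cytosolic counts moved from -0.11 to -0.15 on the log2 scale with total-count scaling. That scaling shifts every gene by -0.04, and with it Farsa, Gars, Hars2 and Vars changed sign. Counts of called genes moved more. Higher by the size rule were 1 gene with a summed count of at least 200 and 0 with the widened interval, in place of 3. Lower were 0 with the widened interval and 1 at a 1.5-fold threshold, in place of 5. The count of 1 higher at 2-fold (Nars2) became 0 with total counts, with 5 added before the log, with a summed count of at least 200 and with the widened interval. It became 2 when centred on genes of like level and at 1.5-fold, where 1 gene was also lower in place of 0. With 1 library per group, nothing could be left out. No paired analysis was possible because each group holds 1 library.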
